A study of Mus musculus with 18 samples.

Results

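The genes described here encode the protein factors that move a ribosome along a coding sequence and release the finished protein at the stop codon. They were chosen by symbol from a list of 10 genes, *Eef1a1*, *Eef1a2*, *Eef1b2*, *Eef1d*, *Eef1g*, *Eef2*, *Eef2k*, *Eif5a*, *Etf1* and *Gspt1*. All 10 were found among the 54752 genes with RNA values and all 10 among the 22523 genes with ribosome footprints.

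RNA sequencing and ribosome profiling, which sequences the mRNA stretches that ribosomes shield from nuclease, were performed on the cerebellum of 3-week-old mice. The 3 genotypes were wild type C57BL/6J (B6J), B6J.*Gtpbp1*-/-, in which a cassette replaces part of the gene, and B6J-*Gtpbp2*-/-, which is homozygous for the *nmf205* point mutation, with 3 mice for each genotype and assay. All of them, B6J controls included, carry the strain's hypomorphic mutation of *n-Tr20*, a neuronal tRNA gene that reads AGA codons, so there is no group without it, and the *Gtpbp1* allele was made on another background and bred onto B6J. RNA libraries held 37794598 to 52114400 estimated counts and footprint libraries 3630823 to 10442573 counts, and RNA formed batch 1 and footprints batch 2, so that assay and batch cannot be told apart.

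eEF1A carries aminoacyl-tRNA to the ribosome, and the eEF1B complex recharges it with GTP. eEF2 then moves the ribosome to the next codon, a step that eEF2 kinase slows by phosphorylating eEF2, while eIF5A helps ribosomes through difficult peptide bonds and the release factors eRF1 and eRF3 end translation at stop codons. The brain has a pair of eEF1A genes, *Eef1a1*, which most cells express, and *Eef1a2*, which takes over in mature neurons and muscle. GTPBP1 and GTPBP2 are GTPases related to eEF1A and eRF3 in their GTP-binding domains.

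The mutated genes were examined first. *Gtpbp1* RNA, in CPM (counts scaled to a common library total, after TMM), was 71.0, 77.8 and 66.7 in B6J, 44.0, 41.7 and 43.9 in B6J.*Gtpbp1*-/- mice and 58.7, 72.2 and 65.7 for B6J-*Gtpbp2*-/- mice. Its footprints were 73.6, 117 and 84.9 CPM in B6J, 32.0, 25.5 and 35.6 CPM in B6J.*Gtpbp1*-/- mice and 79.4, 66.8 and 62.1 CPM for B6J-*Gtpbp2*-/- mice. The libraries labelled B6J.*Gtpbp1*-/- were thus the lowest of the 9 in CPM of both assays. In TPM they overlapped B6J, with 41.1 TPM in replicate 3 beside 38.4 to 43.5 TPM in B6J. *Gtpbp1* RNA fell by 0.73 on the log2 scale in these mice (SE 0.082, edgeR adjusted p = 5.9e-05, lower in 3 of 3 mice), a call lost with an offset for transcript length (−0.31, adjusted p = 0.0819) and with limma on TPM (−0.14, adjusted p = 0.419, or −0.30 relative to a shift of 0.15 in the median of all genes), with adjusted p from 2.7e-13 to 0.419 over 16 alternatives. Its footprints fell by 1.57 (SE 0.23, edgeR adjusted p = 0.00676, lower in 3 of 3 mice), a call made in all 13 alternatives, with adjusted p from 2.0e-07 to 0.0414. *Gtpbp2* RNA was 85.9, 74.0 and 88.1 CPM in B6J, 109, 100.5 and 104 CPM in B6J.*Gtpbp1*-/- mice and 65.5, 75.4 and 72.7 CPM for B6J-*Gtpbp2*-/- mice. It rose by 0.34 in B6J.*Gtpbp1*-/- mice (SE 0.083, edgeR adjusted p = 0.0154, higher in 3 of 3 mice), a call lost without B6J replicate 2 (adjusted p = 0.0660) or B6J.*Gtpbp1*-/- replicate 1 (0.0647), with adjusted p from 0.00125 to 0.0660 over 16 alternatives. Between the mutants it was higher by 0.55 in B6J.*Gtpbp1*-/- mice (SE 0.079, edgeR adjusted p = 0.0360), a call lost without any 1 of the 6 libraries, at adjusted p between 0.0548 (without B6J-*Gtpbp2*-/- replicate 1) and 0.279 (without B6J.*Gtpbp1*-/- replicate 1), with an offset for transcript length (0.11, adjusted p = 0.999) and with limma on TPM (0.12, adjusted p = 0.993), in a range from 4.8e-06 to 0.999. It was 0.55 with sex as a covariate, a fit that rests on B6J.*Gtpbp1*-/- replicate 3 alone in its genotype and did not call it. A replicate block also ended that call between the mutants (edgeR adjusted p = 0.0570). *Gtpbp2* footprints were 44.8, 36.1 and 38.5 CPM in B6J, 36.2, 43.3 and 58.3 CPM in B6J.*Gtpbp1*-/- mice and 28.9, 26.4 and 7.54 CPM for B6J-*Gtpbp2*-/- mice. The libraries labelled B6J-*Gtpbp2*-/- had the lowest *Gtpbp2* footprints, although the log2 fold change from B6J of −0.97 (SE 0.44, edgeR adjusted p = 0.321, lower in 3 of 3 mice) did not pass the test and lay between −1.32 and −0.53 over 13 alternatives, of which 0 called it, DESeq2 included, with adjusted p from 0.118 to 0.805. Their RNA overlapped that of B6J in CPM and lay above it in TPM, at 127, 145 and 151 beside 114, 91.7 and 99.0, with a log2 fold change of −0.22 that did not pass the test (edgeR adjusted p = 0.190). It was −0.61 and passed over protein-coding transcripts alone (adjusted p = 0.00967), and was 0.32 with an offset for transcript length (adjusted p = 0.122), with adjusted p from 0.00967 to 0.396 over 16 alternatives.

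Compared with B6J, 2 of the 10 genes passed the test on RNA in B6J.*Gtpbp1*-/- mice (edgeR, adjusted p of at most 0.05), 1 higher and 1 lower, against 13.8% of all 24577 genes tested. In B6J-*Gtpbp2*-/- mice 2 of the 10 genes passed, again 1 higher and 1 lower, against 8.63% of 24859 genes. In both mutants these were *Eef1a2*, which fell, and *Etf1*, which rose. On simulated counts more of the RNA calls were false than this threshold allows, which bears most on adjusted p close to it. With so few members these counts are not a result about the group, and the values of each gene are given below. The median log2 fold change of the 10 genes was −0.02 in each mutant, beside 0.03 over all genes in each. Values of the groups did not overlap for 5 of the 10 genes in B6J.*Gtpbp1*-/- mice, against 31.9% of all genes, and for 4 of the 10 in B6J-*Gtpbp2*-/- mice, against 28.6%. These counts are of CPM. In TPM all libraries of both mutants were also above B6J for *Eef1g* and *Gspt1*, and those of B6J.*Gtpbp1*-/- for *Eef1b2* and *Eif5a*, while B6J.*Gtpbp1*-/- overlapped B6J for *Eef1d* and B6J-*Gtpbp2*-/- for *Eef2k*. Both comparisons share the B6J libraries. Between the mutants, edgeR called 0 of the 10 genes, against 0.0595% of 25190 genes, with 0 of the 10 at an unadjusted p under 0.05 and 0 called by DESeq2.

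**Figure D1:**
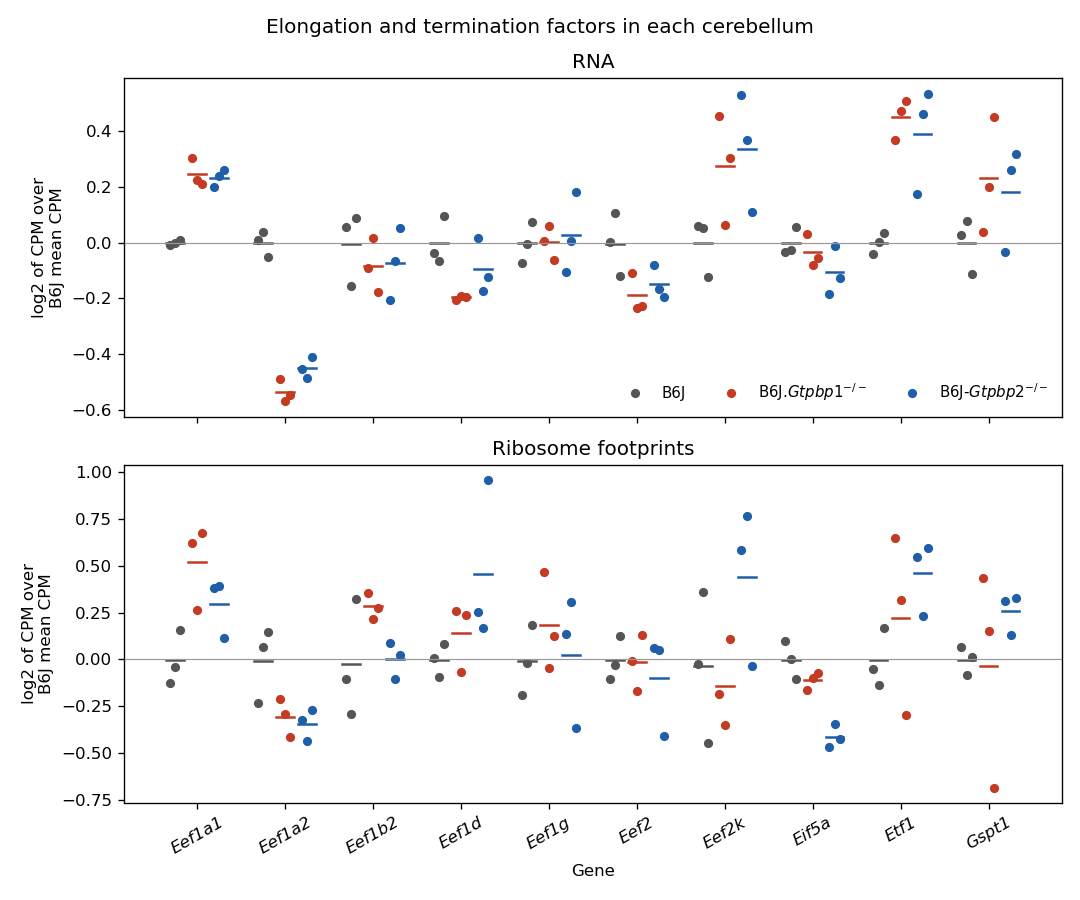
RNA (top) and ribosome footprints (bottom) of the 10 genes, as the log2 of CPM over the mean CPM of B6J, with 1 point for each library and a line at the mean of each genotype (n = 3). In RNA all 6 mutant libraries lie below B6J for *Eef1a2* and above B6J for *Etf1* and *Eef1a1*, and footprints spread more widely within genotypes.

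*Eef1a2* (chr2:181147653-181157014, minus strand, GRCm38) was read from its only annotated transcript. Its RNA was 712, 728 and 683 CPM in B6J, 505, 477 and 484 CPM in B6J.*Gtpbp1*-/- mice and 517, 506 and 533 CPM for B6J-*Gtpbp2*-/- mice. Every mutant library was below every B6J library, and the mutants themselves did not overlap, with B6J.*Gtpbp1*-/- lower. *Eef1a2* RNA fell by 0.53 on the log2 scale in B6J.*Gtpbp1*-/- mice (SE 0.079, edgeR adjusted p = 0.000555, lower in 3 of 3 mice), with adjusted p from 3.9e-13 to 0.00955 over 16 alternatives. It fell by 0.45 in B6J-*Gtpbp2*-/- mice (SE 0.079, edgeR adjusted p = 0.00544, lower in 3 of 3 mice), with adjusted p from 2.4e-08 to 0.0434. The difference between the mutants did not pass the test, with a log2 fold change of −0.09 (SE 0.080, edgeR adjusted p = 1.00, lower in 3 of 3 B6J.*Gtpbp1*-/- mice).

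*Eef1a1* (chr9:78478449-78489151, minus strand) went the other way in its values. Its RNA was 1338, 1344 and 1354 CPM in B6J, 1662, 1572 and 1559 CPM in B6J.*Gtpbp1*-/- mice and 1547, 1588 and 1611 CPM for B6J-*Gtpbp2*-/- mice. All 6 mutant libraries were above all 3 B6J libraries, and the mutants overlapped. The log2 fold change was 0.25 in B6J.*Gtpbp1*-/- mice (SE 0.079, edgeR adjusted p = 0.0557, higher in 3 of 3 mice) and did not pass the test, although it did in 6 of 16 alternatives, DESeq2 and upper quartile scaling among them, with adjusted p from 0.00177 to 0.180. It was 0.23 in B6J-*Gtpbp2*-/- mice (SE 0.078, edgeR adjusted p = 0.0942, higher in 3 of 3 mice), and passed in 2 of 16 alternatives, with adjusted p from 0.00586 to 0.248.

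The balance of the pair was taken in each mouse as the ratio of *Eef1a2* to *Eef1a1* in TPM, a share of all transcripts that accounts for length. It was 0.380, 0.386 and 0.358 in B6J, 0.214, 0.217 and 0.223 in B6J.*Gtpbp1*-/- mice and 0.238, 0.229 and 0.235 for B6J-*Gtpbp2*-/- mice. The 3 genotypes did not overlap, with B6J highest and B6J.*Gtpbp1*-/- lowest. The difference in log2 ratio from B6J was −0.78 (SE 0.037) in B6J.*Gtpbp1*-/- mice and −0.68 (SE 0.036) for B6J-*Gtpbp2*-/- mice. An exact permutation test, two-sided, gave p = 0.1 for each, which is the smallest that 3 against 3 mice allow and cannot pass the threshold, and 0.12 after adjustment over the 6 ratio tests. Between the mutants the difference was −0.10 (SE 0.023, exact p = 0.1, adjusted 0.12).

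Footprints gave ratios of another size. *Eef1a2* had 1817, 2232 and 2360.3 CPM of footprints in B6J, 1846, 1743 and 1601 CPM in B6J.*Gtpbp1*-/- mice and 1705, 1579 and 1769 CPM for B6J-*Gtpbp2*-/- mice. *Eef1a1* had 359, 381 and 437 CPM in B6J, 604, 472 and 628 CPM in B6J.*Gtpbp1*-/- mice and 512, 515 and 424 CPM for B6J-*Gtpbp2*-/- mice. For *Eef1a2* the B6J-*Gtpbp2*-/- libraries lay below B6J and B6J.*Gtpbp1*-/- overlapped it, while for *Eef1a1* the B6J.*Gtpbp1*-/- libraries lay above B6J and B6J-*Gtpbp2*-/- overlapped it. The ratio of footprint counts was 5.06, 5.86 and 5.40 in B6J, 3.05, 3.69 and 2.55 in B6J.*Gtpbp1*-/- mice and 3.33, 3.06 and 4.17 for B6J-*Gtpbp2*-/- mice. Each mutant was below B6J in every library, and the mutants overlapped. The log2 ratio differed from B6J by −0.82 (SE 0.17) in B6J.*Gtpbp1*-/- mice and by −0.64 (SE 0.15) for B6J-*Gtpbp2*-/- mice (exact permutation p = 0.1 each, adjusted 0.12), and between the mutants by −0.19 (SE 0.20, exact p = 0.4, adjusted 0.4).

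**Figure D2:**
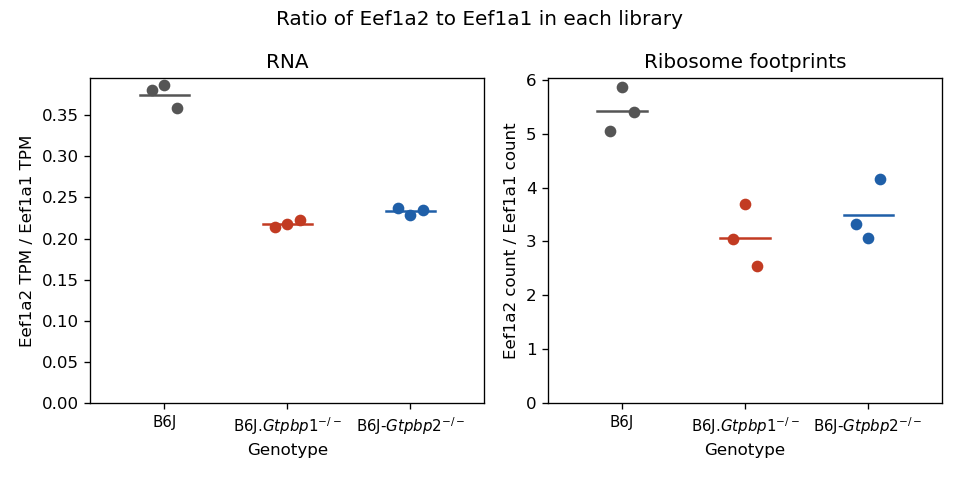
Ratio of *Eef1a2* to *Eef1a1* in each library, from TPM for RNA (left) and from counts for footprints (right), with 1 point for each mouse and a line at the geometric mean of each genotype (n = 3). B6J libraries lie from 0.358 to 0.386 in RNA and from 5.06 to 5.86 in footprints, above all mutant libraries in both.

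The footprint ratio is uncertain in its size because of copies of *Eef1a1*. Of the 30-base windows of its coding sequence, 88.9% occur again elsewhere in GRCm38, at 22 loci, mostly processed pseudogenes, while 0.0734% of the *Eef1a2* windows do. How footprints that map to several places were counted is not given in the sources used here, and footprints per TPM in B6J were 0.180 for *Eef1a1* and 2.61 for *Eef1a2*, with footprints in RPKM over the coding sequence, which is counts for each kilobase scaled to the library total without TMM. In the RNA files the genes that share windows with *Eef1a1* had 0.319% of its counts. The pair do not share any 30-base window with each other, with 79.9% identical bases and the same encoded residue at 92.2% of 462 aligned codons.

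The pair differ in AGA, the codon read by the tRNA that is reduced in all of these mice. *Eef1a1* has 3 AGA codons among 462 and *Eef1a2* has 0 among 463, which is 6.49 and 0 per 1000 codons beside a median of 11.2 over 21595 genes. The stretches around the 3 codons are shown from GRCm38, on the coding strand, with 10 codons each from both genes, and capitals mark the AGA codon of *Eef1a1* and the codon aligned with it in *Eef1a2*.
Eef1a1 around codon 96: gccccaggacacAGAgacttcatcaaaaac
Eef1a2 around codon 96: gctccaggacacCGAgacttcatcaagaat
Eef1a1 around codon 166: tacagtcagaagAGAtacgaggaaatcgtt
Eef1a2 around codon 166: tacagcgagaagCGCtatgatgagattgtt
Eef1a1 around codon 321: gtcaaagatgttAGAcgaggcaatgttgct
Eef1a2 around codon 321: gttaaggatattCGCcggggcaatgtctgc
All of these codons encode arginine. Positions of ribosomes within a coding sequence were not analysed here.

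Markers of cerebellar cells moved in the same mice. The 5 of 5 granule neuron markers measured, of which *Gabra6* was the most abundant, summed to 2467, 2568 and 2583 TPM in B6J, 1615, 1630.1 and 1909.7 TPM in B6J.*Gtpbp1*-/- mice and 1759.8, 1864 and 1651 TPM for B6J-*Gtpbp2*-/- mice. The 4 of 4 microglia markers, led by *P2ry12*, summed to 37.1, 38.8 and 42.5 TPM in B6J, 76.7, 66.3 and 64.3 TPM in B6J.*Gtpbp1*-/- mice and 73.2, 62.9 and 74.4 TPM for B6J-*Gtpbp2*-/- mice. The 3 of 3 endothelial markers, led by *Cldn5*, summed to 55.6, 55.6 and 58.2 TPM in B6J, 82.1, 93.6 and 88.0 TPM in B6J.*Gtpbp1*-/- mice and 80.0, 103 and 109 TPM for B6J-*Gtpbp2*-/- mice. The sum of granule neuron markers was thus lower, and those of microglial and endothelial markers higher, in every mutant library than in every B6J library. Of the single markers, *Tmem119* of microglia overlapped, at 4.21 TPM in B6J-*Gtpbp2*-/- replicate 2 and 4.58 TPM in B6J replicate 1, and none of these markers was at 0. Their part in the values of *Eef1a2* and the other genes was not tested, and in bulk tissue fewer cells of a type cannot be told apart from less RNA per cell. Of the 7 of 7 skeletal muscle markers, another tissue that uses *Eef1a2*, the sum was between 6.56 and 14.5 TPM over the 9 RNA libraries, and the genotypes overlapped. Among them *Myh4* was at 0 in 5 libraries and *Tnni2* in 1.

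In footprints the sums of the same 3 lists separated the mutants from B6J. Granule neuron markers summed to 2390.3, 4019.6 and 3002 CPM in B6J, 2287, 1601 and 2257 CPM in B6J.*Gtpbp1*-/- mice and 1503, 1241 and 1443 CPM for B6J-*Gtpbp2*-/- mice, so that every mutant library was below B6J. Microglia markers, from 111 to 144 CPM in B6J, were between 149 and 320.3 CPM in the mutants, and endothelial markers, from 136 to 234 CPM in B6J, between 303 and 507 CPM. Of the single markers, *Neurod1*, *Cbln3*, *Etv1*, *P2ry12*, *Tmem119*, *Csf1r* and *Flt1* overlapped between mutant and B6J libraries. *Gabra6*, *Zic1*, *Cx3cr1*, *Cldn5* and *Pecam1* did not. Skeletal muscle markers were few, at 8.50, 20.3 and 14.9 CPM in B6J, 36.0, 16.5 and 49.1 CPM in B6J.*Gtpbp1*-/- mice and 4.22, 8.25 and 4.35 CPM for B6J-*Gtpbp2*-/- mice. The B6J-*Gtpbp2*-/- libraries were below all others, B6J.*Gtpbp1*-/- overlapped B6J, and the part of these markers in the footprints of *Eef1a2* was not tested.

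The genes whose RNA followed *Eef1a2* most closely were *Gabarapl2*, *Rapgef4* and *Tmcc2*, with a mean absolute difference in centred log2 CPM of 0.029, 0.034 and 0.037 over the 9 RNA libraries, where the median over 18304 genes was 0.26. The 9 libraries include the 3 genotypes, so a shared genotype difference is part of that likeness.

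The subunits of eEF1B showed smaller differences. *Eef1b2* and *Eef1d* encode the exchange factors eEF1Bα and eEF1Bδ, and *Eef1g* the structural subunit eEF1Bγ. *Eef1d* RNA was 70.4, 69.1 and 77.2 CPM in B6J, 62.7, 63.3 and 63.1 CPM in B6J.*Gtpbp1*-/- mice and 73.0, 64.0 and 66.4 CPM for B6J-*Gtpbp2*-/- mice. In CPM the B6J.*Gtpbp1*-/- libraries lay below both other genotypes, with a log2 fold change from B6J of −0.20 (SE 0.076, edgeR adjusted p = 0.112, lower in 3 of 3 mice) that did not pass the test. With limma on TPM, which moved the median of all genes by 0.15, it was 0.05, or −0.10 relative to that shift. *Eef1b2* RNA was between 74.2 and 90.9 CPM and *Eef1g* RNA between 163 and 198 CPM over the 9 libraries, with the genotypes overlapping for both genes. Their log2 fold changes were −0.08 (SE 0.086) and 0.00 (SE 0.074) in B6J.*Gtpbp1*-/- mice and −0.07 (SE 0.094) and 0.03 (SE 0.086) for B6J-*Gtpbp2*-/- mice.

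In footprints *Eef1d* had 74.5, 69.6 and 78.7 CPM in B6J, 88.8, 70.8 and 87.5 CPM in B6J.*Gtpbp1*-/- mice and 88.4, 83.3 and 144 CPM for B6J-*Gtpbp2*-/- mice. All B6J-*Gtpbp2*-/- libraries were above B6J, and replicate 3 stood apart from the other two. The log2 fold change was 0.50 (SE 0.20, edgeR adjusted p = 0.219, higher in 3 of 3 mice) and lay between 0.20, without replicate 3 of that genotype, and 0.65 over 13 alternatives, none of which called it. Of the 30-base coding windows, 40.3% for *Eef1d* and 30.8% for *Eef1b2* occur elsewhere in the genome, so that their footprint counts are uncertain. *Eef1g* footprints, between 38.2 and 68.0 CPM, are uncertain too, with 95.3% of such windows. Part of the annotation of these genes is not the usual coding transcript. Of *Eef1b2* RNA, 48.4% ± 0.92 of the TPM in B6J, 48.2% ± 1.8 in B6J.*Gtpbp1*-/- mice and 49.8% ± 1.2 for B6J-*Gtpbp2*-/- mice (SD, n = 3) was assigned to a transcript of 691 bases that is annotated as a target of nonsense-mediated decay.

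*Eef2* (chr10:81176631-81182498, plus strand) encodes the translocation factor. Its RNA was 1029, 1106 and 945 CPM in B6J, 953, 874 and 878 CPM in B6J.*Gtpbp1*-/- mice and 972, 914 and 898 CPM for B6J-*Gtpbp2*-/- mice. The genotypes overlapped, through B6J replicate 3. The log2 fold change was −0.19 (SE 0.087, edgeR adjusted p = 0.192) in B6J.*Gtpbp1*-/- mice and −0.15 (SE 0.088, edgeR adjusted p = 0.378) for B6J-*Gtpbp2*-/- mice. In each mutant 2 of 3 mice were below every B6J mouse, and none of the alternatives called either difference. Its footprints were between 706 and 1025 CPM, with log2 fold changes of −0.01 (SE 0.18) and −0.09 (SE 0.17), and are uncertain, since 29.0% of its 30-base coding windows occur elsewhere.

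*Eef2k* (chr7:120842831-120907450, plus strand), the kinase that inactivates eEF2, was higher in its RNA values. It had 69.0, 68.6 and 60.8 CPM in B6J, 90.8, 69.1 and 81.6 CPM in B6J.*Gtpbp1*-/- mice and 95.5, 85.3 and 71.3 CPM for B6J-*Gtpbp2*-/- mice. In CPM all mutant libraries were above all B6J libraries, by little in B6J.*Gtpbp1*-/- replicate 2 and B6J-*Gtpbp2*-/- replicate 3, while in TPM the latter, at 35.3, was below B6J replicate 3, at 38.8. Neither difference passed the test, with a log2 fold change of 0.28 (SE 0.099, edgeR adjusted p = 0.0778, higher in 3 of 3 mice) in B6J.*Gtpbp1*-/- mice and 0.35 (SE 0.11, edgeR adjusted p = 0.0718, higher in 3 of 3 mice) in B6J-*Gtpbp2*-/- mice. Of 16 alternatives, 3 called the former, with adjusted p from 0.0115 to 0.394, and 5 the latter, with adjusted p from 0.00739 to 0.518. Without B6J.*Gtpbp1*-/- replicate 2 the former was 0.38 (edgeR adjusted p = 0.0312), and without B6J-*Gtpbp2*-/- replicate 3 the latter was 0.45 (edgeR adjusted p = 0.0265). The values were smaller with an offset for transcript length, at 0.15 (adjusted p = 0.394) and 0.19 (0.518), and the former also without B6J.*Gtpbp1*-/- replicate 1, at 0.19 (0.301). With limma on TPM, relative to the shift in the median of all genes, they were 0.16 and 0.18. Genes closest to *Eef2k* in their RNA over the 9 libraries were *Ormdl3*, *Uvssa* and *Abcb4*, at mean absolute differences of 0.066, 0.067 and 0.067 in centred log2 CPM, beside a median of 0.24 over 18304 genes.

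*Eef2k* footprints were few, at 156 to 359 counts in a library. They were 34.9, 45.6 and 26.1 CPM in B6J, 31.3, 27.8 and 38.2 CPM in B6J.*Gtpbp1*-/- mice and 53.3, 60.5 and 34.7 CPM for B6J-*Gtpbp2*-/- mice. The genotypes overlapped in every comparison, and the difference between the mutants was −0.60 (SE 0.23, edgeR adjusted p = 0.399, lower in B6J.*Gtpbp1*-/- mice on average). Among 10 regulators of this kinase, 3 fell in RNA and 0 rose in each mutant, beside 13.8% and 8.63% of all genes called, and 2 of these are described. With so few genes this is not a result about the regulators. *Calm3* fell by 0.52 and 0.35 on the log2 scale and *Rps6ka1* fell by 0.52 and 0.52, in B6J.*Gtpbp1*-/- mice and B6J-*Gtpbp2*-/- mice in that order, each lower in 3 of 3 mice, with edgeR adjusted p between 0.000696 and 0.0273. With limma on TPM *Rps6ka1* did not pass (adjusted p = 0.132 and 0.0653), and over 16 alternatives adjusted p ran from 1.4e-07 to 0.132 and from 1.8e-08 to 0.0653. The product of *Calm3* activates the kinase, and the product of *Rps6ka1* phosphorylates it. The median of the 10 was −0.13 and −0.17 beside 0.03 over all genes in each.

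Leaving out a library ended some of these calls. In B6J-*Gtpbp2*-/- mice that of *Calm3* was lost without B6J replicate 1 (edgeR adjusted p = 0.0878), 2 (0.0669) or 3 (0.0613) or mutant replicate 2 (0.104) or 3 (0.0926), and with upper quartile scaling (0.0503), sex as a covariate (0.0641) and limma on TPM (0.148), where it was −0.19, or −0.34 relative to a shift of 0.14 in the median of all genes. Over 16 alternatives its adjusted p ran from 0.000537 to 0.148 there, while in B6J.*Gtpbp1*-/- mice all 16 called it. In footprints *Rps6ka1* alone of the regulators passed, at −0.85 in B6J-*Gtpbp2*-/- mice (SE 0.20, edgeR adjusted p = 0.0333, lower in 3 of 3 mice). Its call was lost without B6J replicate 1 (adjusted p = 0.0679) or 2 (0.146), without B6J-*Gtpbp2*-/- replicate 1 (0.129), 2 (0.105) or 3 (0.102), and with all 9 libraries in 1 model (0.0714). With sex as a covariate the value was −0.45, but that fit rests on B6J replicate 3 alone among the controls. Over the other alternatives adjusted p ran from 0.00523 to 0.146.

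*Eif5a* (chr11:69916714-69921958, minus strand) differed little in RNA, at 179 to 211 CPM over the 9 libraries, with log2 fold changes of −0.03 (SE 0.073) in B6J.*Gtpbp1*-/- mice and −0.11 (SE 0.077) for B6J-*Gtpbp2*-/- mice. Its footprints were 288, 270.1 and 250.4 CPM in B6J, 240.3, 252 and 257 CPM in B6J.*Gtpbp1*-/- mice and 195, 212 and 201 CPM for B6J-*Gtpbp2*-/- mice. The B6J-*Gtpbp2*-/- libraries were the lowest 3 of the 9 and overlapped neither other genotype. The log2 fold change from B6J was −0.42 (SE 0.14, edgeR adjusted p = 0.137, lower in 3 of 3 mice), which did not pass the test in any of 13 alternatives, with adjusted p from 0.111 to 0.690. Of its 30-base coding windows, 42.9% occur at other loci, so these footprint counts are uncertain too. In B6J.*Gtpbp1*-/- mice *Dohh*, the enzyme that completes the hypusine residue of eIF5A, fell by 0.41 on the log2 scale in RNA (SE 0.12, edgeR adjusted p = 0.0329, lower in 3 of 3 mice), and its call held in 7 of 16 alternatives. It was lost without B6J replicate 2 (adjusted p = 0.0576) or 3 (0.0762) or mutant replicate 2 (0.0781) or 3 (0.117), and with upper quartile scaling (0.0659), sex as a covariate (0.0614) and an offset for transcript length (−0.01, adjusted p = 0.989), with adjusted p from 0.00511 to 0.989 over the alternatives, and its sign turned, to 0.14, with limma on TPM, or −0.01 relative to the shifted median.

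*Etf1* (chr18:34902785-34932007, minus strand) encodes eRF1, which recognises all stop codons. Its RNA was 104, 107 and 109 CPM in B6J, 138, 148 and 151 CPM in B6J.*Gtpbp1*-/- mice and 120.2, 147 and 154 CPM for B6J-*Gtpbp2*-/- mice. All 6 mutant libraries were above B6J, and B6J-*Gtpbp2*-/- replicate 1 was the closest to it. In B6J.*Gtpbp1*-/- mice *Etf1* rose by 0.45 on the log2 scale (SE 0.072, edgeR adjusted p = 0.000957, higher in 3 of 3 mice), with adjusted p from 3.0e-07 to 0.0120 over 16 alternatives. In B6J-*Gtpbp2*-/- mice it rose by 0.40 (SE 0.094, edgeR adjusted p = 0.0239, higher in 3 of 3 mice), with adjusted p from 0.000764 to 0.110. That call was lost without B6J replicate 1 (adjusted p = 0.110) or 2 (0.0889), without B6J-*Gtpbp2*-/- replicate 2 (0.0808) or 3 (0.107), and with sex as a covariate (0.0876). That covariate marks B6J replicate 2 alone among these libraries, so its fit in effect repeats leaving that library out.

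*Etf1* footprints were 79.7, 75.1 and 92.8 CPM in B6J, 129, 103 and 67.1 CPM in B6J.*Gtpbp1*-/- mice and 121, 96.8 and 125 CPM for B6J-*Gtpbp2*-/- mice. The B6J-*Gtpbp2*-/- libraries were above B6J, with a log2 fold change of 0.46 (SE 0.17, edgeR adjusted p = 0.168, higher in 3 of 3 mice), and B6J.*Gtpbp1*-/- replicate 3 was below B6J while the other two were above it. No 30-base window of the *Etf1* coding sequence occurs elsewhere in the genome, and it has 6 AGA codons, 13.7 per 1000. *Gspt1* (chr16:11219292-11254325, minus strand), which encodes the GTPase eRF3a, had RNA of 110.0, 114 and 100 CPM in B6J, 111, 124 and 148 CPM in B6J.*Gtpbp1*-/- mice and 106, 129 and 135 CPM for B6J-*Gtpbp2*-/- mice. The genotypes overlapped in CPM, and the log2 fold changes of 0.24 (SE 0.099, edgeR adjusted p = 0.138, higher than the B6J mean in 3 of 3 mice) and 0.19 (SE 0.098, edgeR adjusted p = 0.288, higher than it in 2 of 3) did not pass the test. The latter was 0.29 and was called without B6J-*Gtpbp2*-/- replicate 1 (edgeR adjusted p = 0.0469), with adjusted p from 0.0469 to 0.672 over 16 alternatives, and the former was called with no filter on low counts (edgeR adjusted p = 0.0393), with a range from 0.0393 to 0.478. The former was 0.12 without B6J.*Gtpbp1*-/- replicate 3 and 0.16 with an offset for transcript length, and the latter 0.12 without B6J-*Gtpbp2*-/- replicate 3 and 0.09 with that offset, none of which was called. Of the *Gspt1* coding windows 6.71% occur elsewhere, 12 of them in *Gspt2*, so a part of its counts is uncertain too. The genes that share its windows had 25.1% of its RNA counts. Of these 12935 counts 12912 were those of *Gspt2*, so that percentage is not a share of ambiguous reads. *Gspt1* footprints of B6J.*Gtpbp1*-/- replicate 3, at 66.6 CPM, were again the lowest of the 9 libraries, which otherwise held between 101 and 145 CPM. Those of B6J-*Gtpbp2*-/- mice, at 133, 117 and 134 CPM, were all above B6J, at 112, 101 and 108 CPM. Their log2 fold change of 0.25 (SE 0.15, edgeR adjusted p = 0.426) did not pass the test.

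Across the 10 genes, footprints gave 0 calls by edgeR in each comparison. At an unadjusted p under 0.05 there was 1 in B6J.*Gtpbp1*-/- mice and 3 for B6J-*Gtpbp2*-/- mice against B6J, and 1 between the mutants, and DESeq2 called 0 in each. Of all genes 1763 of 13956, 2355 of 13797 and 1523 of 14142 were at such an unadjusted p, in the same order. The background of edgeR calls was 0.745%, 2.94% and 0% of these genes, the last with 91 called by DESeq2. Groups did not overlap for 1 of the 10 genes in B6J.*Gtpbp1*-/- mice, against 17.8% of genes, and for 5 of the 10 in B6J-*Gtpbp2*-/- mice, against 22.6%. The median log2 fold change of the 10 genes was 0.10 and 0.14, beside 0.01 over all genes tested in each.

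For translational efficiency (TE), the footprints of a gene relative to its RNA, edgeR called 0 of the 10 genes in each comparison. Of all genes it called 0% of 13086 in B6J.*Gtpbp1*-/- mice, 0.00773% of 12931 in B6J-*Gtpbp2*-/- mice and 0% of 13292 between the mutants. At an unadjusted p under 0.05 there were 1170, 1554 and 1483 genes, and DESeq2 called 58, 160 and 157. Of the 10 genes, DESeq2 called 0 in each. The 2 members at an unadjusted p under 0.05, both in B6J-*Gtpbp2*-/- mice, were *Eef1d*, at 0.60 (SE 0.24, edgeR adjusted p = 0.336), and *Eif5a*, at −0.31 (SE 0.15, edgeR adjusted p = 0.410). Without B6J-*Gtpbp2*-/- replicate 3 the value of *Eef1d* was 0.27 (edgeR adjusted p = 0.606), with adjusted p from 0.281 to 0.606 over 12 alternatives. *Eef1a2* TE differed by 0.23 (SE 0.18) in B6J.*Gtpbp1*-/- mice and 0.10 (SE 0.17) for B6J-*Gtpbp2*-/- mice, and *Etf1* TE by −0.18 (SE 0.25) and 0.07 (SE 0.18). The median over the 10 genes was 0.19 and 0.07, beside 0.03 over all genes tested in each.

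Compared per length in B6J, RNA levels ran from 1563 ± 6.0 TPM for *Eef1a1* (SD, n = 3) through 586 ± 21 TPM for *Eef1a2*, 554 ± 40 TPM for *Eef2*, 345 ± 18 TPM for *Eif5a* and 277 ± 34 TPM for *Eef1b2* to 35.7 ± 2.7 TPM for *Eef2k*. The ranges of *Eef1a2* and *Eef2* overlapped between mice, although within each of the 3 mice *Eef1a2* was higher, at 594, 601 and 562 TPM beside 558, 591 and 512 TPM. In both mutants *Eef2* was above *Eef1a2*, at 546 ± 18 against 455 ± 7.9 TPM in B6J.*Gtpbp1*-/- mice and 560.3 ± 20 against 479 ± 8.9 TPM for B6J-*Gtpbp2*-/- mice. By footprint RPKM over the coding sequence, *Eef1a2* led in B6J with 1528 ± 180, followed by *Eif5a* with 581 ± 54, *Eef2* with 362 ± 20 and *Eef1a1* with 281 ± 21, the last 3 uncertain because of their copies, so that their order is uncertain too. *Eef2k* was lowest on this scale too.

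Other genes of the pathway were taken from lists. Of 18 cytosolic partners of the elongation factors, 2 rose and 2 fell in RNA of B6J.*Gtpbp1*-/- mice, beside 13.8% of all genes called, with a median of 0.15 beside 0.03 over all genes. *Eef1e1*, which encodes a multisynthetase complex component, rose by 0.55 (SE 0.099, edgeR adjusted p = 0.00228, higher in 3 of 3 mice), and the diphthamide synthesis gene *Dph5* rose by 0.51 (SE 0.15, edgeR adjusted p = 0.0422, higher in 3 of 3 mice). The methyltransferase gene *Eef1akmt1* fell by 0.47 (SE 0.12, edgeR adjusted p = 0.0177, lower in 3 of 3 mice), and *Dohh* was the other that fell. The call of *Dph5* was lost without any 1 of the 6 libraries, at adjusted p between 0.0699 (without B6J replicate 2) and 0.151 (without mutant replicate 2), and with sex as a covariate (0.130) and an offset for transcript length (0.130). That of *Eef1akmt1* was lost without B6J replicate 2 (0.0655) or mutant replicate 1 (0.0660) or 2 (0.0710), with sex as a covariate (0.0555), with an offset for transcript length (−0.40, adjusted p = 0.132) and with limma on TPM (−0.23, adjusted p = 0.251, or −0.38 relative to the shifted median). Over 16 alternatives adjusted p ran from 0.0121 to 0.151 for *Dph5* and from 0.00239 to 0.251 for *Eef1akmt1*, and the call of *Eef1e1* held in 15, being lost with an offset for transcript length (0.39, adjusted p = 0.0735), in a range from 1.1e-05 to 0.0735. In B6J-*Gtpbp2*-/- mice edgeR called 0 of the 18, with 3 at an unadjusted p under 0.05, while DESeq2 called 3, *Eef1e1*, *Eef1akmt1* and *Dohh*, whose log2 fold changes by edgeR were 0.33 (SE 0.11), −0.38 (SE 0.12) and −0.36 (SE 0.11). Of 7 partners of termination, recycling and selenocysteine decoding, the recycling factor gene *Abce1* rose by 0.28 in B6J.*Gtpbp1*-/- mice (SE 0.081, edgeR adjusted p = 0.0391, higher in 3 of 3 mice), as the only call of the 7, a share close to the 13.8% of all genes, with a list median of −0.10, and edgeR called 0 in B6J-*Gtpbp2*-/- mice, with 0 at an unadjusted p under 0.05 and 0 called by DESeq2. The call of *Abce1* was lost without B6J replicate 1 (adjusted p = 0.161) or 2 (0.123) or mutant replicate 2 (0.157) or 3 (0.120), with all 9 libraries in 1 model (0.114), with sex as a covariate (0.0588) and with an offset for transcript length (0.0971), and adjusted p ran from 0.0120 to 0.161 over 16 alternatives.

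Of 10 mitochondrial factors, *Tufm*, the mitochondrial counterpart of eEF1A, fell by 0.35 (SE 0.090, edgeR adjusted p = 0.0202, lower in 3 of 3 mice) in B6J.*Gtpbp1*-/- mice and by 0.39 (SE 0.095, edgeR adjusted p = 0.0261, lower in 3 of 3 mice) in B6J-*Gtpbp2*-/- mice. *2810006K23Rik* fell by 0.48 (SE 0.13, edgeR adjusted p = 0.0313, lower in 3 of 3 mice) in B6J.*Gtpbp1*-/- mice, beside 13.8% and 8.63% of all genes called in the respective mutants, and the list medians were 0.04 and −0.05 beside 0.03 over all genes in each. The call of *Tufm* in B6J.*Gtpbp1*-/- mice was lost without B6J replicate 2 (adjusted p = 0.0905) or mutant replicate 1 (0.0793), with an offset for transcript length (−0.21, adjusted p = 0.188) and with limma on TPM (−0.04, adjusted p = 0.773, or −0.19 relative to the shifted median), and in TPM these mice, at 68.2, 64.4 and 68.4, overlapped B6J, at 69.5, 69.2 and 67.7. In B6J-*Gtpbp2*-/- mice it was lost without B6J replicate 1 (0.0514), 2 (0.111) or 3 (0.0510) or mutant replicate 3 (0.0532), with sex as a covariate (0.108), with an offset for transcript length (0.0609) and with limma on TPM (−0.19, adjusted p = 0.216, or −0.33 relative to the shifted median). That of *2810006K23Rik* was lost without B6J replicate 1 (0.0751) or 2 (0.0676) or mutant replicate 1 (0.113), 2 (0.0645) or 3 (0.0670), with upper quartile scaling (0.0548), sex as a covariate (0.0983) and an offset for transcript length (0.0806), and with limma on TPM (−0.29, adjusted p = 0.185, or −0.45 relative to the shifted median). Over 16 alternatives adjusted p ran from 0.00391 to 0.773 and from 0.00343 to 0.216 for *Tufm*, and from 0.00711 to 0.185 for *2810006K23Rik*. Between the mutants edgeR called 0 genes of the 4 lists in RNA, with 2 at an unadjusted p under 0.05 and 0 called by DESeq2. In footprints it called 0 in B6J.*Gtpbp1*-/- mice and 0 between the mutants, with 2 and 3 at an unadjusted p under 0.05 and 0 called by DESeq2 in each, and in B6J-*Gtpbp2*-/- mice *Rps6ka1* was the only call of both tools. In TE edgeR called 0 in B6J.*Gtpbp1*-/- mice, 0 in B6J-*Gtpbp2*-/- mice and 0 between the mutants, with 1, 4 and 4 at an unadjusted p under 0.05, and DESeq2 called 1, 0 and 0. That gene was *Dohh*, chosen after its value was seen. Its footprints were few, with 7, 3 and 17 counts in B6J and 30, 33 and 25 counts in B6J.*Gtpbp1*-/- mice, and it passed the filter on low counts through the mutant libraries, where it was high, so its TE difference is not given.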

How the data were processed

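The authors quantified RNA reads with kallisto (0.42.4) on Gencode transcripts and deposited an estimated count, an effective length and a TPM value for each transcript. Footprints were mapped with HISAT2 (2.1.0) after removal of ribosomal RNA reads with Bowtie2 (2.2.3), and the authors deposited the featureCounts count for each gene, on mm10. For each gene, its transcripts' estimated counts were added up and rounded, and their TPM values were added up. Pairs of genotypes were compared by edgeR's quasi-likelihood test (version 4.0.16, R 4.3.3; robust, TMM, Benjamini-Hochberg adjustment over all genes tested, at most 0.05), for genes with at least 5 counts in 3 of 6 libraries, all 10 members among them. TE was the interaction of assay and genotype over 12 libraries, for genes with at least 10 counts in 3 of 6 libraries of each assay, without histone genes (prefix Hist). Ratios were compared with exact permutation tests (scipy 1.17.1). Alternatives used DESeq2 (1.42.0) and limma (3.58.1) on log2(TPM + 0.5). Tests were tested on simulated counts. No replicates were the same library deposited again: the lowest chi-square per gene between mice of a genotype was 15.9 for RNA and 10.6 for footprints. Copies were searched as exact 30-base windows of the coding sequence on GRCm38 (Gencode M21), with Python 3.11.15, numpy 2.4.6 and pandas 2.3.3, and figures were drawn with matplotlib 3.10.9. The genes named are every member, the mutated genes, every gene of 4 lists with an adjusted p of at most 0.05 in any of 9 comparisons (except 1 that is not reported here), transcripts with at least 5% of a member's TPM, and for *Eef1a2* and *Eef2k* the 3 genes most alike, among those with a mean log2 CPM of at least 0. Markers of 11 cell types were summed. The members and lists were chosen with earlier results of these data known.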

Additional observations from a re-analysis of the deposited data

How the results depend on the processing

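The number of the 10 genes called in RNA, 2 in each mutant, was 4 in B6J.*Gtpbp1*-/- mice with upper quartile scaling (3 higher and 1 lower) and with no filter on low counts, and in B6J-*Gtpbp2*-/- mice 4 with DESeq2 and 1 with sex as a covariate. Leaving out 1 library gave 2 to 3 and 1 to 3, and 0 in every other comparison, assay and TE, where all alternatives gave 0. *Eef1a2* was called in all 16 alternatives in both mutants, *Etf1* in 16 and 11, *Gspt1* in 1 and 1. Over the alternatives 30 of all 480 RNA, 26 of 390 footprint and 19 of 360 TE values of the 10 genes differed in sign from the value reported, each for a difference that had not passed the test, and none of these passed it. The log2 ratio of *Eef1a2* to *Eef1a1*, leaving out 1 library, ran from −0.81 to −0.76 in B6J.*Gtpbp1*-/- mice and from −0.71 to −0.66 for B6J-*Gtpbp2*-/- mice in RNA, and from −0.96 to −0.69 and from −0.76 to −0.54 in footprints. Between the mutants it ran from −0.12 to −0.09 and from −0.32 to −0.06. With a replicate block the counts were 2, 3 and 0 in RNA and 0 in footprints and TE. The ratio differences stayed at −0.78, −0.68 and −0.10 in RNA and −0.82, −0.64 and −0.19 in footprints. A block cannot move a difference of means where every genotype holds the same replicate numbers, so for the ratio it is not a check. Same-numbered libraries did not deviate together (correlations from −0.27 to 0.18), so the number was not taken as a pairing. The block also ended the calls of *Dph5*, *Dohh*, *Abce1* and *2810006K23Rik* in B6J.*Gtpbp1*-/- mice (adjusted p = 0.0876, 0.0908, 0.0767 and 0.0721). Between the mutants it ended the call of *Gtpbp2* RNA (edgeR adjusted p = 0.0570). Limma on TPM moved the median of all genes by 0.15 in B6J.*Gtpbp1*-/- mice and 0.14 for B6J-*Gtpbp2*-/- mice. Relative to that shift *Eef1a1* was 0.26 and 0.25, and *Dohh*, at 0.14 in B6J.*Gtpbp1*-/- mice, was −0.01. *Gtpbp2* RNA in B6J-*Gtpbp2*-/- mice was 0.47 with limma. Over all genes, edgeR called 3398, 2146 and 15 in RNA, and the alternatives 1890 to 4325, 953 to 3393 and 5 to 45. In footprints 104, 406 and 0 became 22 to 410, 45 to 634 and 0 to 91, and in TE 0, 1 and 0 became 0 to 58, 0 to 160 and 0 to 157. Of the RNA calls 1449 and 898 were higher in the mutants, against 1837 of 3349 and 1074 of 2015 with upper quartile scaling and 1621 of 2156 and 750 of 971 with limma. The cause was not tested. Footprint depth, from 3630823 counts, and the few TE calls over all genes limit what 0 calls can show there.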

Other observations

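By their sums, none of the marker lists of the other cell types set all mutant libraries of both genotypes apart from B6J in RNA. Purkinje cell markers (4 of 4 measured, led by *Pcp2*) summed to 3545 ± 282 TPM in B6J, 3694 ± 520 TPM in B6J.*Gtpbp1*-/- mice and 3101 ± 283 TPM for B6J-*Gtpbp2*-/- mice (SD, n = 3). Markers of astrocytes and Bergmann glia (5 of 5, led by *Aldoc*) summed to 2996 ± 138, 2989 ± 293 and 2889.8 ± 209 TPM in the same order, and those of bone and fibroblasts (6 of 6, led by *Col1a2*) to 50.3 ± 7.7, 63.9 ± 13 and 55.4 ± 14 TPM. Both sums overlapped between genotypes, as that of Purkinje markers did. Within the astrocyte list, which *Aldoc* dominates, *Gfap* was 114, 99.8 and 112 TPM in B6J and between 232 and 371 TPM in the 6 mutant libraries, and *Slc1a3* was between 834 and 1026 TPM in B6J and between 681 and 825 TPM in the mutants, both chosen after their values were seen. Markers of inhibitory neurons (4 of 4, led by *Pvalb*) summed to 1597 ± 82, 1448 ± 134 and 1269 ± 129 TPM, and all B6J-*Gtpbp2*-/- libraries were below B6J. Their footprints went the other way, at 2978, 1866 and 3520.2 CPM in B6J and 4004, 3889.5 and 4312 CPM for B6J-*Gtpbp2*-/- mice. Oligodendrocyte markers (4 of 4, led by *Mbp*) summed to 8228 ± 690, 6697 ± 560 and 8692 ± 1335 TPM, with all B6J.*Gtpbp1*-/- libraries below B6J, and red blood cell markers (3 of 3, led by *Hbb-bs*) to 2873 ± 798, 5277 ± 588 and 2702 ± 1752 TPM, with all B6J.*Gtpbp1*-/- libraries above it. Choroid plexus markers (3 of 3, led by *Ttr*) ran from 109 TPM in B6J-*Gtpbp2*-/- replicate 1 to 3675 TPM in B6J.*Gtpbp1*-/- replicate 1, and overlapped between genotypes. No marker of these lists was at 0 in all RNA libraries, although in the bone and fibroblast list *Ibsp* was at 0 in 4 libraries and *Bglap* in 1. Footprints of that list were between 1463 and 2784 CPM in B6J.*Gtpbp1*-/- mice, above the 326 to 957 CPM of B6J. The part of these markers in the values of the 10 genes was not tested.

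Counts of the Y-linked gene *Ddx3y* differed between RNA and footprint libraries of the same number. In RNA they were 5455 and 6574 in B6J.*Gtpbp1*-/- replicates 1 and 2 and 4663 in B6J replicate 2, and at most 26 in the other 6 libraries. In footprints they were 835 in B6J.*Gtpbp1*-/- replicate 1 and 379 and 330 in B6J replicates 1 and 2, and at most 25 in the other 6. Libraries of B6J.*Gtpbp1*-/- replicate 2 and of B6J replicate 1 were thus high in one assay alone, so that a shared number does not mark the same mouse there. All B6J-*Gtpbp2*-/- libraries were low in this gene in both assays. Sex and genotype were thus not balanced, which limits what a call lost with sex as a covariate can show. In RNA of B6J-*Gtpbp2*-/- mice against B6J, the covariate in effect leaves out B6J replicate 2, for every gene. In footprints of that comparison the difference rests on B6J replicate 3 alone among the controls. Between the mutants in RNA it rests on replicate 3 alone of B6J.*Gtpbp1*-/- mice.

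A protein-coding transcript of 672 bases held 10.4% ± 2.1 of the TPM of *Eef2k* in B6J, 4.22% ± 4.5 in B6J.*Gtpbp1*-/- mice and 3.55% ± 1.8 for B6J-*Gtpbp2*-/- mice (SD, n = 3). B6J libraries lay between 8.69% and 12.7%, B6J-*Gtpbp2*-/- libraries between 1.45% and 4.90% and B6J.*Gtpbp1*-/- libraries at 0%, 9.03% and 3.63%, the second of them within the B6J range. In *Eef1d* a protein-coding transcript of 713 bases held 12.9% ± 2.5 of the TPM in B6J. It held 17.4% ± 1.7 in B6J.*Gtpbp1*-/- mice and 17.8% ± 1.2 for B6J-*Gtpbp2*-/- mice (SD, n = 3), above B6J in every mutant library. Both transcripts were chosen after their values were seen, from several of each gene that held at least 5% of its TPM. The shares of both transcripts were not tested.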
